A study of Mus musculus with 5 samples.

Results

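The genes described here are 10 members of the nuclear receptor family, ligand-regulated transcription factors that bind DNA directly: the retinoid X receptor genes Rxra, Rxrb and Rxrg, the retinoic acid receptor genes Rara and Rarb, the vitamin D receptor gene Vdr, the thyroid hormone receptor genes Thra and Thrb, and the orphan receptor genes Rora and Rorb. They were taken by symbol from the 22532 genes of the deposited matrices. The study sequenced single nuclei of the mouse central amygdala (CeA), a forebrain structure built almost wholly of inhibitory neurons, in 3 libraries from fed mice and 2 from fasted mice, to compare cell types and their transcriptional response to fasting. Each library pooled the CeA of 1 male and 1 female mouse. Fed libraries 1 and 2 came from C57BL6 mice aged 8 weeks with food always available. Fed library 3 came from Htr2a-Cre mice aged 12 weeks, in which a transgene places Cre under the serotonin receptor 2a promoter and a Cre-dependent virus carried mCherry. The fasted libraries came from C57BL6 mice aged 8 weeks, without food for 20 hours in replicate 1 and for 21 hours in replicate 2 by the labels. The labels name no change to any of the 10 genes.

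RXR proteins form heterodimers with RAR, VDR and TR proteins, so a nucleus needs a partner pair to read retinoic acid, vitamin D or thyroid hormone through these receptors. Without ligand, RAR and TR heterodimers hold corepressors at their sites and with ligand they exchange them for coactivators. ROR proteins bind as monomers and drive circadian genes such as Npas2 and Arntl, at sites where Nr1d1 and Nr1d2 repress. In the brain, Rarb is known as a receptor of striatal projection neurons, thyroid hormone reaches neurons largely through astrocytes that carry the transporter Slco1c1 and the activating deiodinase Dio2, and RORs are known in astrocytes and in timing circuits.

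Nuclei with 500 to 8000 detected genes and less than 0.8% mitochondrial UMIs (unique molecular identifiers, 1 per counted transcript) were kept, 7161 of 23839 barcodes, with 1130 to 1734 nuclei and 9763452 to 29703855 UMIs per library. Median UMIs per nucleus ran from 6608 in fasted library 1 to 16367 in fasted library 2, and median mitochondrial shares were higher in the fasted libraries (0.317% and 0.237%) than in the fed ones (0.0529% to 0.136%). The part of this difference in the feeding comparisons was not tested. Classes were gated on raw UMIs of marker genes, none of them a receptor described here: Prkcd, Dnah5 and Sst (neurons of the lateral division), Calcrl (capsular division), Tac1 and Il1rapl2 (medial division), Foxp2 (intercalated cells), Pde1c (the interstitial nucleus beside the CeA) and Nkx2-1 (interneurons of the basolateral amygdala). Of 5053 inhibitory nuclei, 2459 entered a gate, 117 were left out because they had the high Il1rapl2 level of interneurons without Nkx2-1 and 2477 reached no gate and are called ungated. Among markers not used for gating, Ezr was highest in Prkcd, Cdh9 in Calcrl, Ebf1 and Npy in Sst, Nts, Tac2 and Vipr2 in Dnah5, Tafa1 and Cacna1g in Il1rapl2, Rai14 and Tshz1 in Foxp2, Drd2 and Penk in Pde1c, and Lhx6 and Nxph1 in Nkx2-1. Drd2 was not highest in Calcrl, Crh in Dnah5, Htr1b and Nefm in Il1rapl2, Oprm1 in Foxp2 or Erbb4 in Nkx2-1, and the Tac1 gate was highest for none of its checks Drd1, Pdyn and Rgs9. Levels are CPM, the UMIs of a gene as a share of all UMIs of a class on the usual CPM scale, given as mean ± SD over the 5 libraries unless a group is named. The Tac1 gate with 52 nuclei and the Nkx2-1 gate with 101 had fewer than 10 nuclei in some library and were not tested. The gate for oligodendrocyte precursors (OPCs) also took in interneurons, with Lhx6 at 68.3 CPM, because its list held Sox6. It was therefore not compared, and OPC levels are given from 60 nuclei chosen without Sox6, where Lhx6 had no UMI.

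By the GENCODE annotation of GRCm39, the build of the deposited files, the genes lay on 8 chromosomes and differed widely in span, which matters because unspliced nuclear transcripts were counted. Rora spanned 734 kb (chromosome 9, 68561068 to 69295528, plus strand), Rarb 391 kb (chromosome 14, 5650540 to 6041094, plus), Thrb 379.6 kb (chromosome 14, 4429815 to 4809435, minus) and Rorb 181 kb (chromosome 19, 18907969 to 19088585, minus). Rxra spanned 86.9 kb (chromosome 2, 27566452 to 27653330, plus), Vdr 56.2 kb (chromosome 15, 97752306 to 97808511, minus), Rara 47.2 kb (chromosome 11, 98818612 to 98865768, plus), Rxrg 41.5 kb (chromosome 1, 167425673 to 167467193, plus), Thra 32.8 kb (chromosome 11, 98629109 to 98661924, plus) and Rxrb 6.62 kb (chromosome 17, 34250759 to 34257376, plus). Thra overlapped Nr1d1 over 3173 bases and Rarb overlapped Top2b over 6794 bases, in both cases on opposite strands. Levels of different genes are therefore not set against each other, and comparisons run across classes and libraries for each gene.

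RAR-RXR heterodimers bind repeated hexamers, and Rarb is itself a textbook target of retinoic acid through such a repeat at a start inside the gene. Windows from 250 bases before to 50 bases after every annotated start of a protein-coding gene were searched on both strands for 2 hexamers in tandem, with gaps of 1 to 5 bases. A hexamer was the consensus AGGTCA, the same with a first base G (GGGTCA), the same with T for the G next to its T (AGTTCA), or the form with both changes (GGTTCA). With a gap of 5, the spacing of the classical RAR-RXR element, 87 of 168613 windows held a match, 0.0516%. Among the 10 genes, only Rarb had one, shown here because Rarb varied most in level of the RAR genes, with the matched letters in capitals, on the plus strand at chr14:5894214-5894270 of GRCm39:
Rarb: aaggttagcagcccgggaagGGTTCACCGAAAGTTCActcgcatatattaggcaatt
Its first capital stood at positions -16 to -131 relative to 5 annotated starts. The other match among the 10 genes was 1 with a gap of 4 at a start inside Rxrb, a spacing found in 0.0433% of windows. A match describes letters and does not show that a receptor bound there.

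The receptor genes fell into patterns that differed in shape. Rarb, Rorb and Rxrg varied steeply between classes. Thra and Thrb were found in every class, with modest differences between the tested neuron gates. Rora was found in every class and was highest in astrocytes. Rara and Rxra were low with selective differences, Rxrb was level over the tested neuron gates, and Vdr was found in 118 nuclei. Over the 7 neuron gates with enough nuclei for tests, the ratio of the highest to the lowest mean was 11.7 for Rarb (Pde1c over Dnah5), 7.6 for Rxrg (Il1rapl2 over Prkcd), 6.49 for Rorb (Prkcd over Sst), 5.22 for Rara (Il1rapl2 over Dnah5) and 3.13 for Rxra (Prkcd over Foxp2), against 1.81 for Thrb, 1.63 for Rora, 1.53 for Thra and 1.37 for Rxrb.

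**Figure D1:**
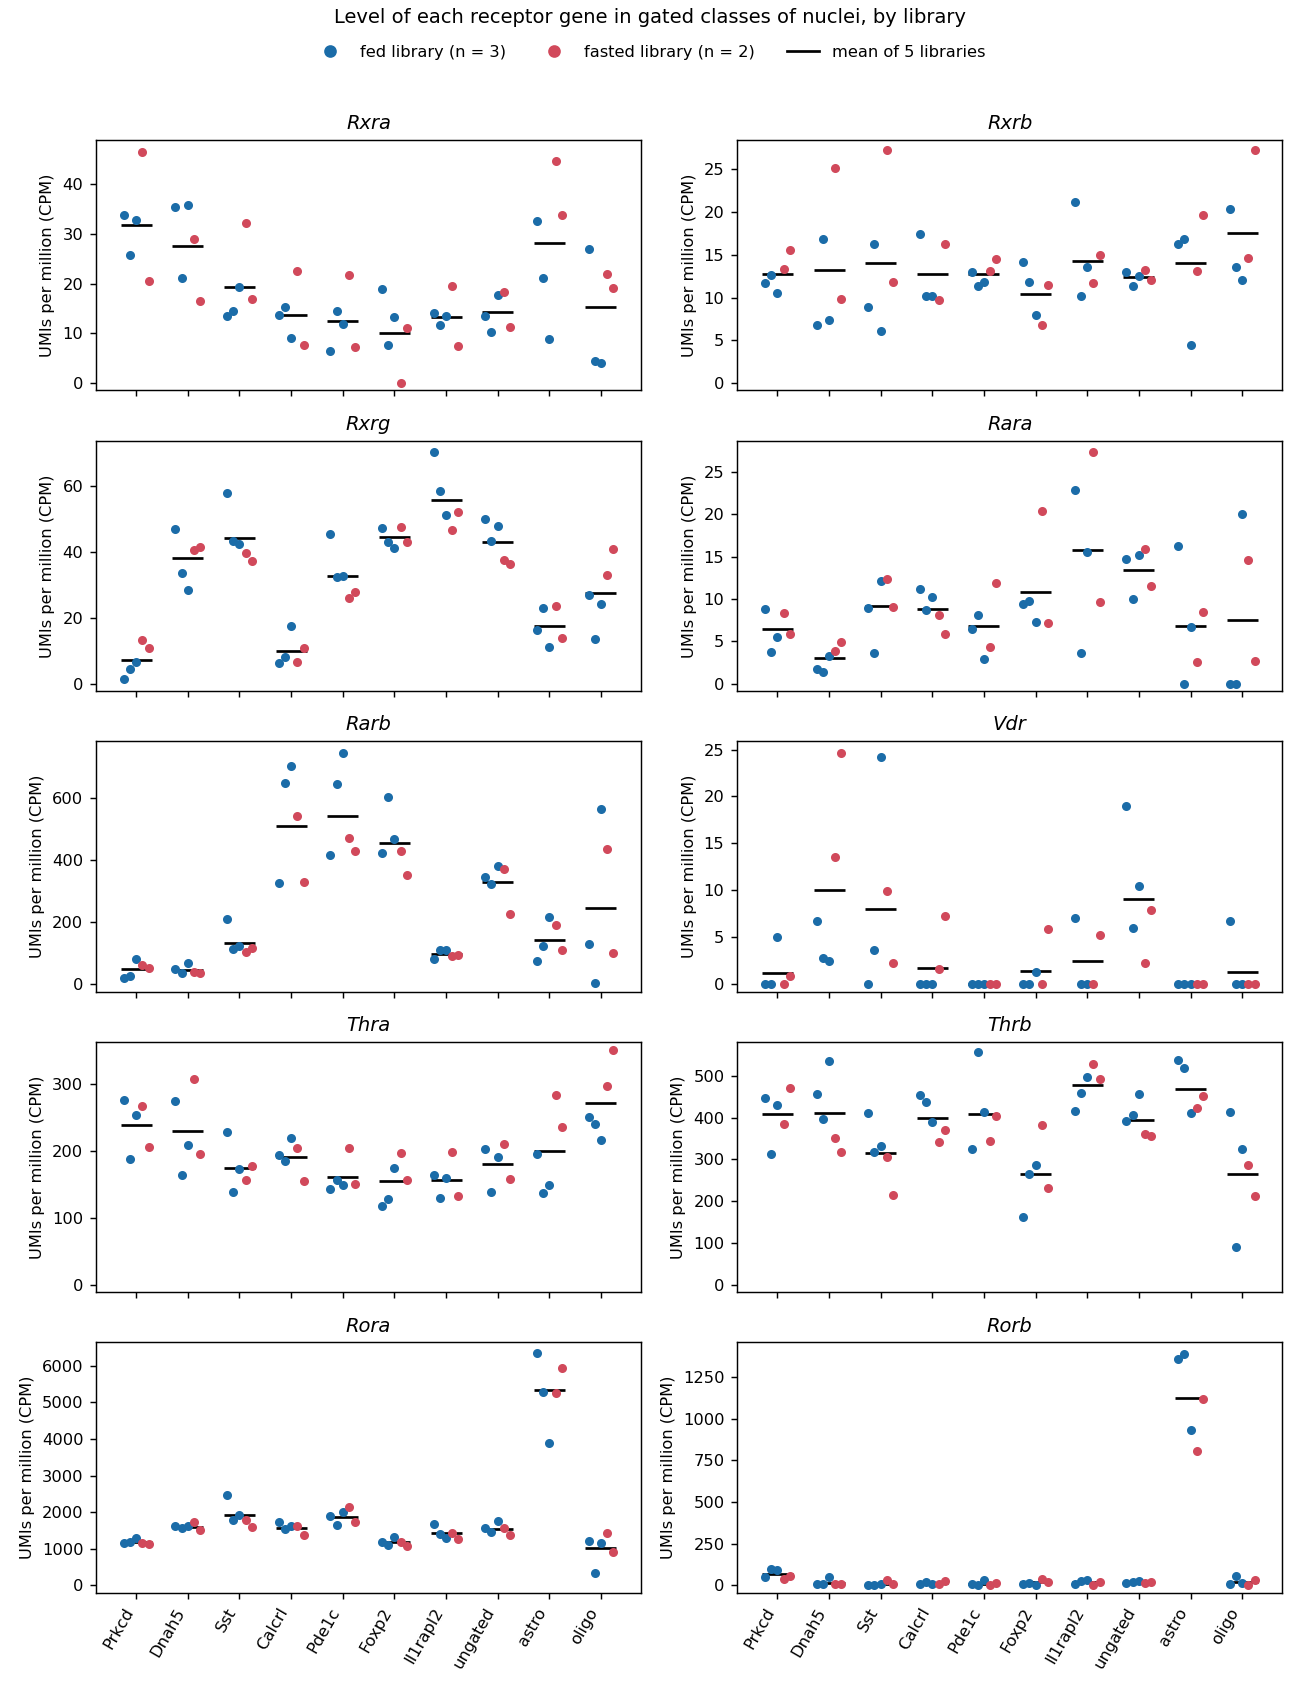
Levels of the 10 receptor genes (y axis, CPM, linear, each panel with its own scale) in 8 neuron classes, astrocytes and oligodendrocytes (x axis); blue points are the 3 fed and red points the 2 fasted libraries, and black lines the mean of 5. Rarb stood between 327 and 744 CPM in the Calcrl and Pde1c gates and at or below 81.1 CPM in the Prkcd and Dnah5 gates, and Rorb and Rora were highest in astrocytes in all 5 libraries.

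Each gate was tested against the other inhibitory nuclei of the same libraries, and astrocytes and oligodendrocytes against all inhibitory nuclei, by edgeR's quasi-likelihood test with the library as a block and Benjamini-Hochberg adjustment over all genes tested. A call means an adjusted p under 0.05. Rarb and Vdr mark clusters in the study and are only described. Of the other 8 genes, 6 were called in the Prkcd gate, where 32.9% of all genes tested were called, 3 in Dnah5 (17.2%), 3 in Sst (8.52%), 1 in Calcrl (18.8%), 1 in Pde1c (13.1%), 3 in Foxp2 (16.4%), 3 in Il1rapl2 (12.7%), 3 in astrocytes (43.9%) and 2 in oligodendrocytes (14.2%). Of these 25 calls, 17 held under every alternative run, and the others are named with their values below.

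**Figure D2:**
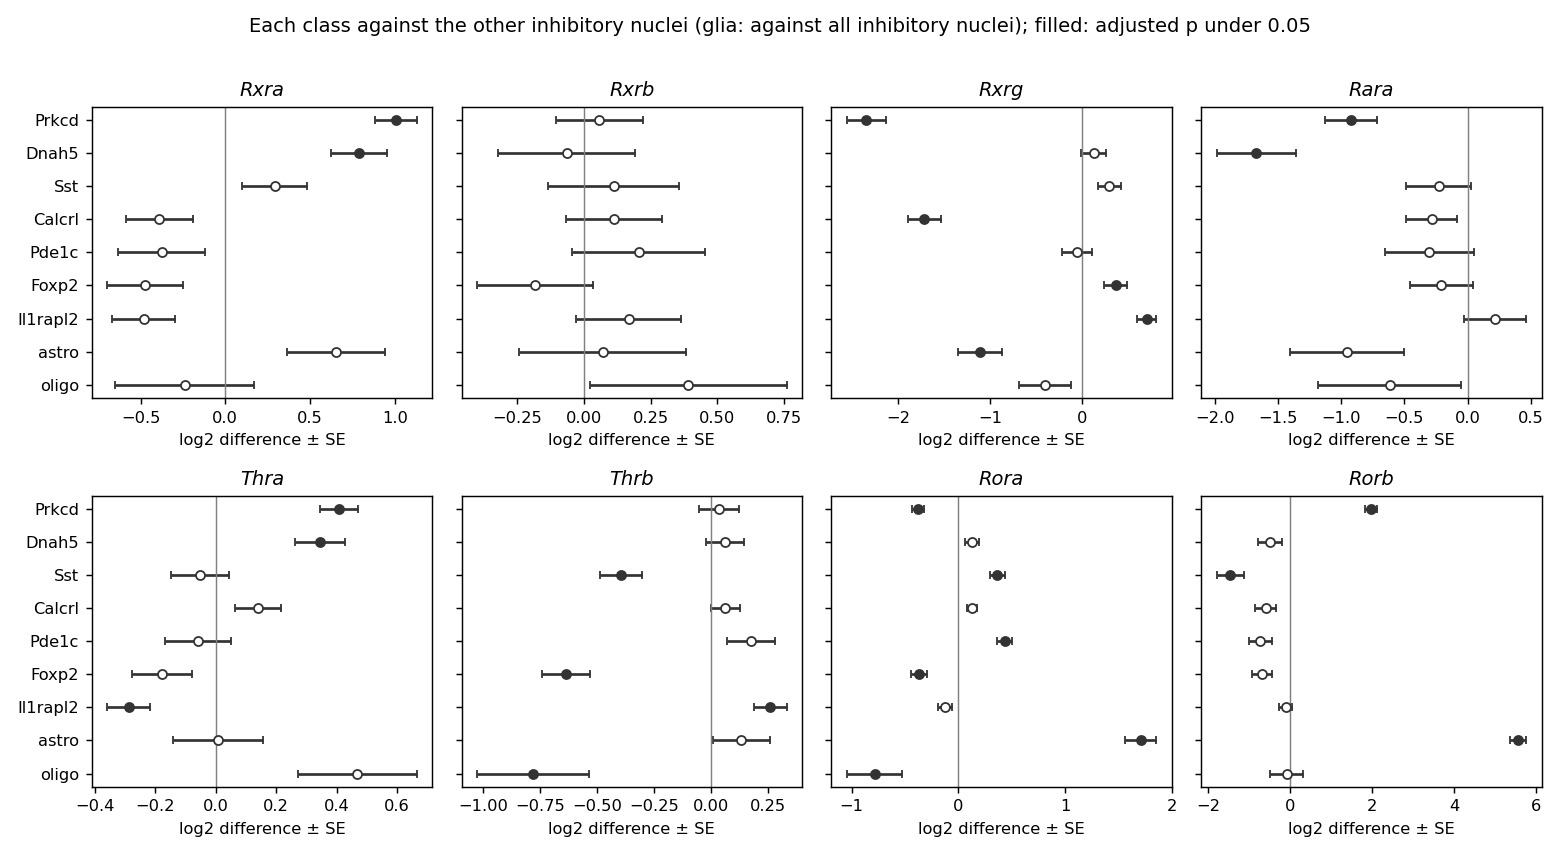
Log2 difference ± SE (x axis) of 8 receptor genes between a class (y axis) and the other inhibitory nuclei, or all inhibitory nuclei for astrocytes and oligodendrocytes (5 libraries); filled points had an adjusted p under 0.05. The Prkcd gate was lower in Rxrg (-2.34) and higher in Rorb (1.98) and Rxra (1.01), and no point of Rxrb is filled.

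Among the RXR genes, Rxrg separated the neuron classes most. In the Prkcd gate it was at 1.47, 4.41 and 6.72 CPM in the fed and 13.3 and 10.9 CPM in the fasted libraries. In the Il1rapl2 gate it was at 70.5, 58.7 and 51.4 CPM in the fed and 46.9 and 52.4 CPM in the fasted libraries, so that the lowest Il1rapl2 library lay above the highest Prkcd library. Against the other inhibitory nuclei Rxrg was lower in the Prkcd gate (log2 difference -2.34 ± 0.21 SE, edgeR adjusted p = 8.5e-08) and in the Calcrl gate (-1.72 ± 0.18, adjusted p = 1.21e-06), and higher in the Il1rapl2 gate (0.71 ± 0.11, adjusted p = 6.29e-05). A smaller excess in the Foxp2 gate (0.37 ± 0.12, edgeR adjusted p = 0.0362) was lost in 6 alternatives, among them leaving out fed library 2, fed library 3 or fasted library 2. Rxrg was also lower in astrocytes than in inhibitory nuclei (-1.10 ± 0.24, edgeR adjusted p = 0.000814), at 17.6 CPM ± 5.55 (SD, n = 5). The Nkx2-1 gate, not tested, held the lowest level of Rxrg among the gates, 3.79 CPM ± 3.77, with no UMI in fed library 1 and fasted library 1.

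Rxra followed another order. It was highest in the Prkcd gate, at 33.7, 25.9 and 32.8 CPM in the fed and 46.5 and 20.6 CPM in the fasted libraries, and in the Dnah5 gate, at 27.5 CPM ± 8.62. Both were above the other inhibitory nuclei (Prkcd 1.01 ± 0.12, adjusted p = 3.27e-06; Dnah5 0.79 ± 0.17, adjusted p = 0.00284, edgeR). The Calcrl, Pde1c, Foxp2 and Il1rapl2 gates lay between 10.2 and 13.7 CPM and were not called. In astrocytes Rxra was at 28.2 CPM ± 13.6, a log2 difference of 0.65 ± 0.29 that missed the threshold (edgeR adjusted p = 0.0780) but passed it without fed library 3 (0.96, adjusted p = 0.00629) and with stricter gates (0.73, adjusted p = 0.0489).

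Rxrb was not called in any of the 9 comparisons, with log2 differences from -0.18 ± 0.22 (Foxp2) to 0.39 ± 0.37 (oligodendrocytes). Its mean stayed between 10.4 CPM in Foxp2 and 14.3 CPM in Il1rapl2 over the 7 tested neuron gates. These gates held 46 to 98 Rxrb UMIs each, and the SE ran from 0.16 to 0.37 over the 9 comparisons, so small differences were not detectable at this depth. Microglia, 80 nuclei that were not tested, had 69.6 CPM ± 26.1 of Rxrb from 24 UMIs.

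The 3 RXR genes made up different mixtures. The Rxrg share of RXR UMIs was 15.5% of 375 in the Prkcd gate, and stayed between 3.12% and 23.2% in the single libraries. In the Il1rapl2 gate 69.0% of 442 RXR UMIs were Rxrg, 60% to 73.0% over libraries, so the library ranges of these gates did not meet. The Calcrl gate lay between them, with an Rxrg share of 31.3% of 246 UMIs. The Rxra share was 58.4% in Prkcd, 32.5% in Calcrl and 13.6% in Il1rapl2. Over all inhibitory nuclei 55.5% of 4824 RXR UMIs were Rxrg. Because the genes differ in span, such a share is comparable between classes but is not a share of protein or of mature transcripts.

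**Figure D3:**
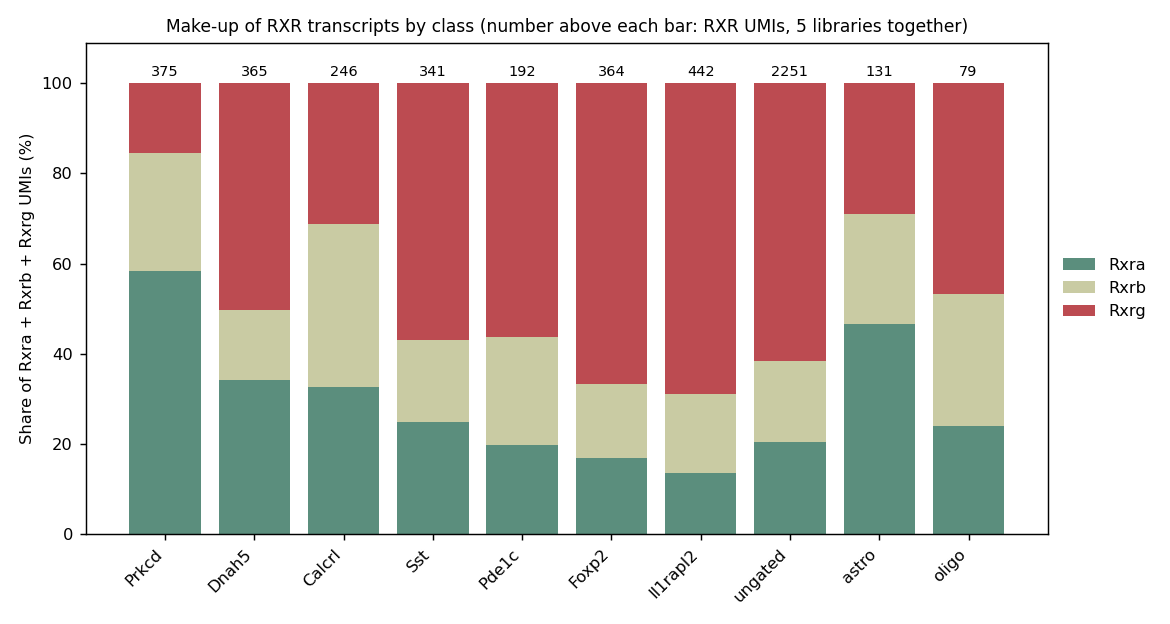
Share of RXR UMIs from Rxra, Rxrb and Rxrg (y axis, percent, stacked bars) by class (x axis), 5 libraries pooled, with the number of RXR UMIs above each bar. The Rxra share was larger in the Prkcd gate (58.4%) and in astrocytes (46.6%) than in Il1rapl2 (13.6%) and Foxp2 (16.8%), and the Rxrg share was larger in Il1rapl2 (69.0%) and Foxp2 (66.8%) than in Prkcd (15.5%).

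Of the retinoic acid receptor genes, Rarb had the wider range. Its level in the Pde1c gate was 416, 645 and 744 CPM in the fed and 471 and 428 CPM in the fasted libraries, and in the Calcrl gate 327, 646 and 702 CPM in the fed and 540 and 327 CPM in the fasted libraries. The Foxp2 gate held 454 CPM ± 92.1 and the ungated nuclei 328 CPM ± 62.0. The library ranges of Pde1c, Calcrl and Foxp2 overlapped each other, while every ungated value lay below every Pde1c value. The Sst and Il1rapl2 gates stood lower, at 134 CPM ± 43.2 and 97.7 CPM ± 12.8, and the Prkcd and Dnah5 gates lowest, at 48.0 CPM ± 25.4 and 46.1 CPM ± 14.4. Microglia held 43.5 CPM ± 65.3 of Rarb from 10 UMIs. Astrocytes held 144 CPM ± 58.9 and oligodendrocytes 246 CPM ± 240, both above the means of the Sst, Il1rapl2, Prkcd and Dnah5 gates. The oligodendrocyte values ran from 4.54 to 562 CPM over libraries. After thinning each nucleus to 4000 UMIs, a Rarb UMI was found in 8.32% of Prkcd nuclei (exact 95% binomial interval 5.95% to 11.2%). It was found in 5 of 41 microglia (12.2%, 4.08% to 26.2%), 27.4% of astrocytes (21.8% to 33.6%) and 30.7% of oligodendrocytes (22.4% to 40.0%). Among these thinned nuclei the Prkcd share was thus not above that of these other lineages. Thinning kept 457 of 458 Prkcd nuclei but 41 of 80 microglia, 237 of 491 astrocytes and 114 of 236 oligodendrocytes. The glial shares therefore describe only the deeper nuclei of those classes. Over all nuclei, the upper quartile of Rarb was 0 in the Prkcd gate, in astrocytes and in oligodendrocytes. Nuclei within a gate were uneven: 5 or more Rarb UMIs were found in 43.5% of Calcrl nuclei and these held 95% of the Rarb UMIs of that gate, while the median Prkcd nucleus had none and 17 of 458 Prkcd nuclei held 70.2% of that gate's Rarb UMIs.

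Across all inhibitory nuclei, 1209 had 5 or more Rarb UMIs and 2559 had none, with at least 128 of the former in each library. The study used Rarb to mark the amygdalostriatal area beside the CeA, so striatal markers were set beside it. Adora2a, the adenosine receptor of striatopallidal neurons, was at 59.5 CPM ± 15.4 in the nuclei with Rarb and at 5.67 CPM ± 1.89 in those without. Drd2, the dopamine D2 receptor, was at 172 CPM ± 54.9 and 20.5 CPM ± 3.43, and Penk, which encodes enkephalin, at 237 CPM ± 49.3 and 86.2 CPM ± 14.7. Rgs9 was nearly alike, at 185 CPM ± 36.6 and 172 CPM ± 27.6. Several receptors were lower in mean level in the nuclei with Rarb. Vdr was at 1.72 CPM ± 2.21 in them and 9.86 CPM ± 5.70 in those without, Rorb at 12.1 CPM ± 2.52 and 29.5 CPM ± 11.8, Rxra at 11.6 CPM ± 3.58 and 20.3 CPM ± 6.15, and Rxrg at 30.0 CPM ± 1.92 and 38.1 CPM ± 4.73. Since nuclei were chosen by Rarb and depth, these are descriptions without a test.

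Rara was low throughout, with the highest tested gate, Il1rapl2, at 15.8 CPM ± 9.61. It was lower in the Dnah5 gate than in the other inhibitory nuclei (-1.67 ± 0.32, edgeR adjusted p = 0.00126), at 1.69, 1.41 and 3.26 CPM in the fed and 3.86 and 4.93 CPM in the fasted libraries from 17 UMIs in all. It was also lower in the Prkcd gate (-0.92 ± 0.21, edgeR adjusted p = 0.00177), at 6.45 CPM ± 2.08. By mean level, Dnah5 and Prkcd were the lowest of the 7 tested gates in both RAR genes and the highest in Rxra. Library values overlapped between many of these gates, however. The Rara values of Prkcd overlapped those of Pde1c, Calcrl, Sst, Foxp2 and Il1rapl2, and those of Dnah5 overlapped Pde1c, Sst and Il1rapl2. For Rxra, the values of both Prkcd and Dnah5 overlapped those of Sst, Calcrl and Pde1c.

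Vdr was concentrated in few nuclei. The 7161 nuclei held 501 Vdr UMIs in 118 nuclei, and 54 nuclei with 3 or more UMIs held 84.0% of them, up to 22 in 1 nucleus. Ungated inhibitory nuclei held 57.1% of the Vdr UMIs and the Dnah5 gate 12.2%. Its level in the Dnah5 gate was 6.74, 2.81 and 2.44 CPM in the fed and 13.5 and 24.6 CPM in the fasted libraries, and in ungated nuclei 18.9, 5.95 and 10.5 CPM in the fed and 2.27 and 7.93 CPM in the fasted libraries. The Dnah5 values did not overlap between fed and fasted libraries, as was the case for 19.9% of genes with 15 or more UMIs in that gate, and Vdr did not pass the filter on low counts there. Of its 61 UMIs in the gate, 45 were in fasted library 2, and 6 nuclei held 47 of the 61. The shares of thinned nuclei with a Vdr UMI overlapped, at 5.88%, 3.03% and 0% in the fed and 3.39% and 4.82% in the fasted libraries. Without that filter it was called higher in the fasted libraries in Dnah5 (log2 2.45 ± 0.56, edgeR adjusted p = 0.00408) and in Calcrl (5.90 ± 1.48, edgeR adjusted p = 0.0229), where the fed libraries held no Vdr UMI, so that the latter value depends on the prior count. Dropping the filter raised the calls over all genes as well. In Dnah5 78 of 15107 genes were called, against 1 of 7815 with the filter, and in Calcrl 58 of 15556, against 6 of 9497. No Vdr UMI was found in the Pde1c, Tac1 or Nkx2-1 gates or in 491 astrocytes. In nuclei thinned to 4000 UMIs each, 0 of 215 Pde1c nuclei had a Vdr UMI, which allows up to 1.4% by a limit of 3 counts, and 0 of 237 astrocytes did, which allows up to 1.27% by the same limit, whereas 10 of 299 Dnah5 nuclei did (3.34%, exact 95% binomial interval 1.62% to 6.06%). Intervals and limits of this kind cover counting error only.

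The 48 inhibitory nuclei with 3 or more Vdr UMIs, 3 to 20 per library, differed from the 4951 without Vdr in other receptors. Rxrg was at 150.0, 78.9 and 149.6 CPM in these nuclei in the fed libraries and at 40.7 and 67.7 CPM in the fasted ones, against 32.0 to 39.0 CPM in nuclei without Vdr. It was higher in the nuclei with Vdr in all 5 libraries, by a small margin in fasted library 1, which had 3 such nuclei. Rarb was lower in nuclei with Vdr in all 5 libraries, at 44.5 CPM ± 44.5 against 285 CPM ± 53.5, and so was Thrb, at 209 CPM ± 84.7 against 398 CPM ± 29.5. Rxra did not separate them, at 17.3 CPM ± 10.6 against 16.5 CPM ± 4.00. Tafa1 and Cacna1g, markers of the medial division, were at 250 CPM ± 136 and 179 CPM ± 95.8 in nuclei with Vdr and at 126 CPM ± 18.1 and 96.9 CPM ± 17.8 in those without. Each was higher in the nuclei with Vdr in 4 of the 5 libraries and lower in the other, fed library 3 for Tafa1 and fed library 2 for Cacna1g. Ebf1, a marker of the Sst gate, was at 27.6 CPM ± 27.4 and 267 CPM ± 27.8.

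**Figure D4:**
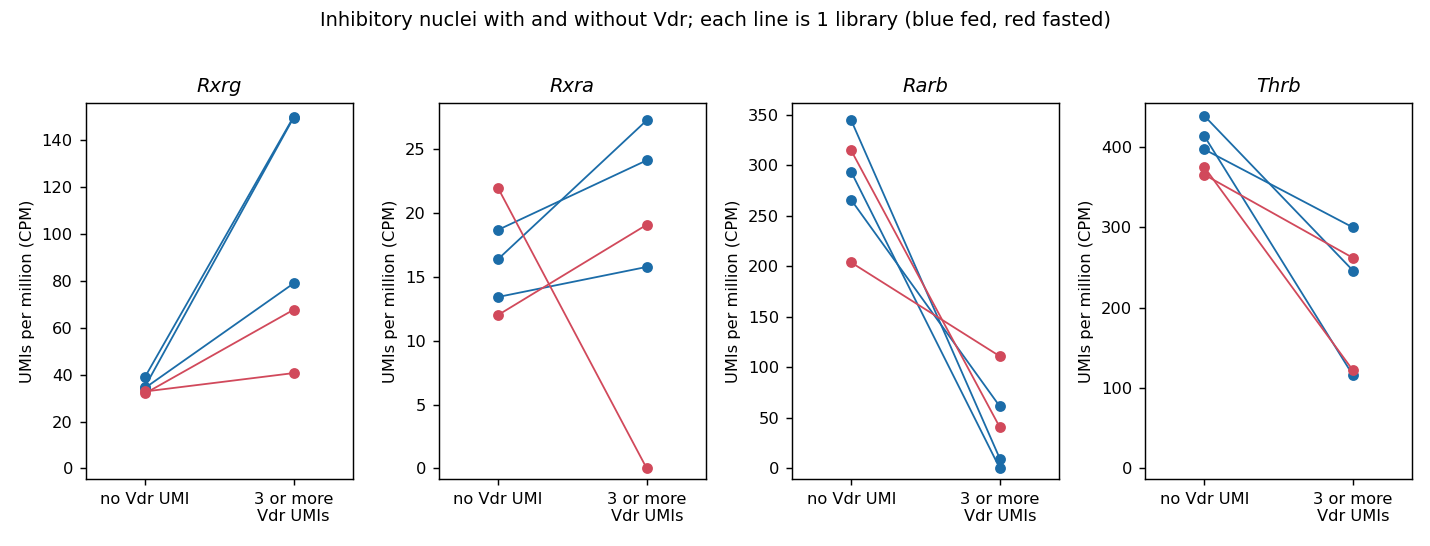
Levels (y axis, CPM, linear from 0) of Rxrg, Rxra, Rarb and Thrb in inhibitory nuclei without a Vdr UMI and with 3 or more (x axis); each line joins the values of 1 library, blue fed and red fasted. Rxrg rose along all 5 lines and Rarb and Thrb fell along all 5, while Rxra rose along 4 and fell to 0 in fasted library 1.

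Partner pairs were then looked for in single nuclei, in 4797 inhibitory nuclei thinned to 4000 UMIs. A UMI of any RXR gene was found in 21.2% of them, and in 21 of the 51 with a Vdr UMI, 41.2%. For Rxrg alone the shares were 12.0% of all and 33.3% of the Vdr nuclei (17 of 51, exact 95% binomial interval 20.8% to 47.9%). Within libraries and classes this was 2.39 times the number that the product of the single shares gives, with 1.28 to 2.94 in the single libraries. Of the 51 Vdr nuclei, 33 were ungated, and cell types among ungated nuclei were not separated. The ratio can therefore hold differences between cell types, and does not show pairing beyond them. Without thinning the shares were 61.8% of 102 Vdr nuclei and 30.8% of all. Microglia gave 0 of 41 nuclei for Rxrg, which allows up to 7.32% by the limit of 3 counts, and oligodendrocytes 7.02%. For pairs of an RXR gene with a RAR or TR gene this ratio ran from 0.792 (Rxrg with Rara) to 1.16 (Rxra with Rara). Nuclei with a Rarb UMI had an RXR UMI in 19.0%, and nuclei with a Thrb UMI in 20.6%, both near the 21.2% of all nuclei. At this depth most transcripts of these low genes go unseen, so these shares do not say how many nuclei hold both proteins.

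The thyroid hormone receptor genes were present in every class. Thra was highest in oligodendrocytes, at 250, 241 and 217 CPM in the fed and 297 and 351 CPM in the fasted libraries, a difference from inhibitory nuclei that missed the threshold (0.47 ± 0.20, edgeR adjusted p = 0.128). Among neurons it was higher in the Prkcd gate (0.41 ± 0.06, adjusted p = 4.96e-05) and the Dnah5 gate (0.35 ± 0.08, adjusted p = 0.00738), and lower in the Il1rapl2 gate (-0.29 ± 0.07, adjusted p = 0.00835, all by edgeR). The Dnah5 call was lost in the fed libraries alone (adjusted p = 0.116) and the Il1rapl2 call there (0.0735) and without fasted library 2 (0.0574). Those gates stood at 238 CPM ± 39.0, 230 CPM ± 58.9 and 157 CPM ± 28.1, and the library values of all 3 overlapped, the differences being within libraries.

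Thrb ran differently. Of the tested gates Il1rapl2 was highest, at 416, 460 and 497 CPM in the fed and 527 and 493 CPM in the fasted libraries, and above the other inhibitory nuclei (0.26 ± 0.07, edgeR adjusted p = 0.0178), a call lost without fed library 3, fasted library 1 or fasted library 2 and in the fed libraries alone (adjusted p = 0.0529 to 0.309). Foxp2 was lowest, at 161, 265 and 285 CPM in the fed and 381 and 232 CPM in the fasted libraries (-0.64 ± 0.10, edgeR adjusted p = 1.26e-05). Sst was lower as well (-0.39 ± 0.09, edgeR adjusted p = 0.00538), a call lost without fasted library 2 (0.0883), with stricter gates (0.0552) and in the fed libraries alone (0.182). In oligodendrocytes Thrb was at 413, 90.8 and 325 CPM in the fed and 286 and 212 CPM in the fasted libraries, below inhibitory nuclei (-0.78 ± 0.25, edgeR adjusted p = 0.0390) a call lost in 6 alternatives, among them leaving out fed library 1 (0.0521) or fasted library 2 (0.155), with an adjusted p of up to 0.189. Astrocytes held 468 CPM ± 56.7 and were not called (0.13 ± 0.12).

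Both ROR genes were highest in astrocytes, Rorb far above its level in neurons and Rora above a level that was already high in neurons. Rorb was at 1361, 1389 and 935 CPM in astrocytes of the fed and 808 and 1117 CPM of the fasted libraries, against 22.0 CPM ± 6.80 in inhibitory nuclei (5.57 ± 0.19, edgeR adjusted p = 1.81e-14). Rora was at 6339, 5297 and 3878 CPM in astrocytes of the fed and 5270 and 5938 CPM of the fasted libraries, against 1501 CPM ± 117 (1.71 ± 0.15, edgeR adjusted p = 1.03e-08). OPCs stood next, with Rorb at 183 CPM ± 76.0 and Rora at 2633 CPM ± 405 in the 60 nuclei chosen without Sox6.

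Among the tested neuron gates, Rorb was highest in the Prkcd gate. It was at 52.8, 95.9 and 91.1 CPM in the fed and 38.2 and 57.1 CPM in the fasted libraries, against means of 10.3 to 18.8 CPM in the other 6 tested gates, and higher than in the other inhibitory nuclei (1.98 ± 0.14, edgeR adjusted p = 2.76e-09). Library values of Dnah5 (48.9 CPM in fed library 3) and Foxp2 (40.9 CPM in fasted library 1) lay within the Prkcd range. In fasted library 1 the Foxp2 gate thus stood above the Prkcd gate. The excitatory neurons, 70 nuclei that were not tested, held 48.3 CPM ± 54.1, from 13.2 to 143 CPM over libraries, and overlapped the Prkcd gate. The Prkcd level was 5.97% of the astrocyte level, against 0.920% to 1.67% in the other 6 tested gates. All 6 astrocyte gate markers had UMIs in the Prkcd gate, at 0.685% (Slc1a3) to 1.96% (Slc4a4) of their astrocyte levels, and Slc1a3 and Gja1 (0.956%) stood close to their values in the Sst gate (0.689% and 0.858%). A UMI of Rorb was found in 18.6% of thinned Prkcd nuclei (exact 95% binomial interval 15.1% to 22.5%) and in 1.75% of thinned oligodendrocytes. The gate was mixed: 81 of 458 Prkcd nuclei had 3 or more Rorb UMIs and 271 had none. Gja1 was at 1.87 CPM ± 1.86 in the former and 2.44 CPM ± 3.02 in the latter, Prkcd at 654 CPM ± 131 and 582 CPM ± 76.1, and Slc1a3 at 29.6 CPM ± 43.3 and 11.1 CPM ± 10.5. Rorb was lower in the Sst gate than in the other inhibitory nuclei (-1.46 ± 0.33, edgeR adjusted p = 0.00455), a call that DESeq2 did not make (adjusted p = 0.251).

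Rora was present in all neurons with small differences of narrow error. It was higher in Pde1c (0.44 ± 0.07, adjusted p = 6.12e-05) and Sst (0.37 ± 0.07, adjusted p = 0.00089) and lower in Prkcd (-0.38 ± 0.06, adjusted p = 4.4e-05) and Foxp2 (-0.37 ± 0.08, adjusted p = 0.000521, all by edgeR). The Prkcd gate held 1188 CPM ± 55.6 and the Foxp2 gate 1174 CPM ± 90.0, against 1882 CPM ± 204 in Pde1c and 1917 CPM ± 328 in Sst. Prkcd nuclei were low in Rora and high in Rorb. A lower Rora in oligodendrocytes (-0.78 ± 0.26, edgeR adjusted p = 0.0492) was lost in 8 alternatives, including each leave-one-out fit but that without fasted library 1.

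Genes of hormone supply and response were read from fixed lists, by the same tests, and each gene called higher or lower had an adjusted p under 0.05 by edgeR. The median over all genes tested lay between -0.08 and 0.01 in the 9 comparisons. Of 13 retinoid supply genes, 5 could be tested in astrocytes and 2 were higher, where 43.9% of all genes were called: Aldh1a1, which makes retinoic acid, at 73.2 CPM ± 58.5 (6.51 ± 0.46) and Dhrs3, which returns retinaldehyde to retinol (3.44 ± 0.33). Aldh1a2 and Aldh1a3, the other enzymes that make it, were below 2 CPM in every tested class. Among neurons, Cyp26b1, which degrades retinoic acid, was higher in Calcrl (1.94 ± 0.17) and lower in Pde1c (-3.08 ± 0.44), Dnah5 (-1.72 ± 0.30), Foxp2 (-1.54 ± 0.27) and Sst (-1.0 ± 0.26). The gates richest in Rarb lay at both ends for Cyp26b1, at 47.6 CPM ± 11.5 in Calcrl and 1.06 CPM ± 1.72 in Pde1c. Dhrs3 was higher in Pde1c (2.36 ± 0.39), as was Rdh10, a retinol dehydrogenase (0.77 ± 0.22).

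Of the 6 vitamin D supply genes, 3 could be tested in oligodendrocytes and 1 was higher, Cyp27a1, a sterol hydroxylase (6.57 ± 0.68). Cyp27b1, which activates vitamin D, and Cyp24a1, the Vdr target that degrades it, were below 2 CPM in every tested class. Of the 8 thyroid hormone supply genes, Slco1c1 (7.0 ± 0.21) and Dio2 (6.12 ± 0.38) were higher in astrocytes, while 3 were lower, among them the transporter gene Slc16a10 (-1.59 ± 0.43). Crym, which encodes a thyroid hormone-binding crystallin, was higher in Sst (1.38 ± 0.15), Dnah5 (1.21 ± 0.13), Pde1c (0.96 ± 0.18) and Calcrl (0.46 ± 0.13) and lower in Il1rapl2 (-1.86 ± 0.21), where Slc16a10 was higher (1.23 ± 0.18).

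Of the 6 thyroid hormone targets, 3 of the 4 tested were higher in the Prkcd gate, where 32.9% of all genes were called: Nrgn, neurogranin (0.93 ± 0.07), Klf9 (0.63 ± 0.11) and Mbp (0.48 ± 0.08), with a list median of 0.55. In the Calcrl gate, where neither Thra nor Thrb was called and 18.8% of all genes were, 3 of 4 were higher as well: Dbp (0.61 ± 0.17), Klf9 (0.54 ± 0.09) and Mbp (0.38 ± 0.08), with a list median of 0.46. Mbp is also a gate marker of oligodendrocytes. Dbp (-1.42 ± 0.24) and Mbp (-0.76 ± 0.11) were lower in Il1rapl2, which was the gate with the highest Thrb and one of the lowest for Thra. In astrocytes, where 43.9% of all genes were called, the 6 targets went both ways. Thrsp (4.2 ± 0.84), Hr (4.06 ± 0.64) and Klf9 (1.36 ± 0.17) were higher and 2 were lower. Of the 5 ROR targets, 3 were higher in the Prkcd gate: Cry1 (1.26 ± 0.13), Npas2 (0.98 ± 0.07) and Arntl, also called Bmal1 (0.56 ± 0.09), with a list median of 0.56. The same genes were lower in Il1rapl2, with differences of -1.17 ± 0.20, -1.55 ± 0.10 and -0.53 ± 0.09. The same 3 genes were higher in Calcrl, where Rorb was not called, with differences of 0.52 ± 0.18, 0.93 ± 0.08 and 0.38 ± 0.08 and a list median of 0.52. Npas2 was also higher in Dnah5 (0.90 ± 0.08) and Pde1c (0.97 ± 0.09), gates in which Rorb was not called, and in astrocytes (0.57 ± 0.13), where Clock was lower (-0.63 ± 0.14).

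Of 7 coactivator genes, Ppargc1a was higher in Prkcd (0.79 ± 0.09), Calcrl (0.63 ± 0.09) and astrocytes (1.16 ± 0.13) and lower in Foxp2 (-0.80 ± 0.12) and Sst (-0.48 ± 0.11), and Ncoa1 was lower in Calcrl (-0.51 ± 0.07) and higher in astrocytes (0.96 ± 0.12). Of 6 corepressor genes, Tbl1xr1 was higher in astrocytes (1.38 ± 0.13) and oligodendrocytes (0.75 ± 0.19), and the median over the list stayed between -0.08 and 0.07 in the 9 comparisons. Of 11 other receptors that pair with RXR or share ROR sites, 8 were higher and 1 lower in astrocytes, with a list median of 1.06. Of all 12767 genes tested there, 2658 were higher and 2945 lower, with a median of -0.06. Ppara was higher (6.91 ± 0.22) and Nr4a1 lower (-2.02 ± 0.37). In the Prkcd gate Nr1d1 was higher (0.82 ± 0.18) and Pparg (-3.07 ± 0.57) and Nr4a2 (-2.02 ± 0.66) were lower. Nr1d1 overlaps Thra on the opposite strand, and both were higher in that gate.

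Likeness of level was taken over 15 classes as the Pearson correlation of log2(CPM + 1) among 10437 genes, a description over points that share libraries and depth. The classes included the OPC gate chosen with Sox6, which also took in interneurons. The genes most like Rorb were Aldh1l1, an astrocyte enzyme (r = 0.92), Zhx2 and Slc13a5, and those most like Rora were Tnfrsf19 (0.97), Nim1k and Sec14l2. Rarb was most like Zbed6 (0.80), Tmod1 and Zswim5, Rara like Sncb, a synuclein gene (0.95), Iqsec1 and Ryr2, and Vdr like Fam160a2 (0.83), Wdr70 and 6430628N08Rik. Rxra was most like Rbks (0.93), Pnn and the corepressor gene Tbl1x, Rxrb like Pik3r5 (0.96), Lgmn and Atp6v0b, and Rxrg like Fxyd5 (0.89), Kl and Dclk3. Thra was most like Ptk2 (0.95), Cdc42bpa and Arhgef28, and Thrb like Ttl (0.97), Dtx1 and Pfkm.

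The comparison of fasted with fed libraries asks whether food deprivation changed these genes within a class. It was run by edgeR's quasi-likelihood test without a block. None of the 10 genes was called in all inhibitory nuclei or in any of 10 classes, in 87 tests, of which 8 had an unadjusted p under 0.05. The lowest adjusted p was 0.400, and the median SE was 0.26 on the log2 scale. Over all genes, 711 of 13598 had an unadjusted p under 0.05 by the same test in all inhibitory nuclei. By class this share was lowest in oligodendrocytes, at 130 of 5374 genes, and highest in Prkcd, at 754 of 9746. The share of all genes called was small too: 0% in all inhibitory nuclei, 0.277% in Prkcd, 0.0128% in Dnah5, 0.727% in Sst, 0.0632% in Calcrl, 0% in Pde1c, 0.0722% in Foxp2, 0.0551% in Il1rapl2, 0.00819% in ungated nuclei, 0.0139% in astrocytes and 0% in oligodendrocytes. No gene of the 8 supply, response and coregulator lists was called in these 11 comparisons. edgeR's likelihood ratio test, the kind the study used, and DESeq2 called none of the 10 genes either. As the summed counts come from whole classes, fewer nuclei that express a gene and less RNA per nucleus cannot be told apart.

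Values without overlap between fed and fasted libraries were common, at 19.3% of genes with 15 or more UMIs in astrocytes, 22.3% in Prkcd, 17.3% in ungated and 18.1% in all inhibitory nuclei. Rorb in the Prkcd gate was lower in fasted libraries, at 38.2 and 57.1 CPM against 52.8, 95.9 and 91.1 CPM, with overlap at fed library 1 (log2 -0.75 ± 0.26, edgeR adjusted p = 0.400). Thra in astrocytes was at 283 and 236 CPM in the fasted against 195, 137 and 149 CPM in the fed libraries, without overlap (0.74 ± 0.26, edgeR adjusted p = 0.584). Rxrg in the Prkcd gate was at 13.3 and 10.9 CPM against 1.47, 4.41 and 6.72 CPM, without overlap (1.19 ± 0.51, edgeR adjusted p = 0.584), and in ungated nuclei at 37.6 and 36.4 CPM against 50.1, 43.4 and 48.1 CPM, also without overlap (-0.37 ± 0.14, edgeR adjusted p = 0.906). In all inhibitory nuclei Thrb was at 372 and 363 CPM in the fasted against 406, 396 and 437 CPM in the fed libraries (-0.19 ± 0.11) and Rxrg at 32.8 and 32.8 CPM against 41.5, 34.9 and 36.0 CPM (-0.21 ± 0.13), both without overlap and both with an edgeR adjusted p of 1.00. Thrb values also lay lower without overlap in the Calcrl, Sst, Dnah5 and ungated nuclei, with log2 differences from -0.49 to -0.24. Values did not overlap for 19.5%, 20.4%, 19.9% and 17.3% of genes with 15 or more UMIs in these classes. As parts of all inhibitory nuclei from the same 5 libraries, these classes are not independent observations. The fall of Thrb was not uniform over the gates. Its mean was higher in the fasted libraries in Il1rapl2 and Foxp2, and fed and fasted values overlapped there and in Prkcd and Pde1c. The log2 differences of Thra (0.03 ± 0.19) and Rora (-0.10 ± 0.13) in all inhibitory nuclei were smaller than their SE.

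Fed and fasted libraries of the same number were assumed to have been prepared together, which the labels do not state. The test was therefore repeated with the replicate number as a block, which leaves 1 residual degree of freedom and draws nothing on feeding from fed library 3. With the block, Rarb was called higher in fasted libraries in the Prkcd gate (log2 1.14 ± 0.26, edgeR adjusted p = 0.00975, 1.42% of all genes called) and in oligodendrocytes (2.25 ± 0.40, edgeR adjusted p = 6.97e-06, 3.89% called), where the fit without the block gave 0.22 ± 0.39 and 0.20 ± 1.20. The paired values in Prkcd were 19.1 and 61.5 CPM in fed and fasted library 1 and 26.5 and 52.1 CPM in fed and fasted library 2, while fed library 3 stood at 81.1 CPM, above both fasted libraries. In oligodendrocytes they were 129 and 436 CPM, 4.54 and 100.8 CPM, and 562 CPM in fed library 3. The 4.54 CPM of fed library 2 was 1 UMI, and 21 of 236 oligodendrocytes held 86.4% of the Rarb UMIs. With the block and nuclei called as doublets removed, neither was called (Prkcd 0.92 ± 0.27, adjusted p = 0.0845; oligodendrocytes 2.26 ± 0.48, adjusted p = 0.160, edgeR). In the Rarb-rich gates the blocked and unblocked values lay at or below 0, as with Calcrl at -0.38 ± 0.29 and Pde1c at -0.48 ± 0.25 without the block. Vdr in ungated nuclei was called lower in fasted libraries only with the block and fed library 3 left out (-0.99 ± 0.28, edgeR adjusted p = 0.0172, 3.17% of all genes called), against -1.08 ± 0.52 without the block.

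**Figure D5:**
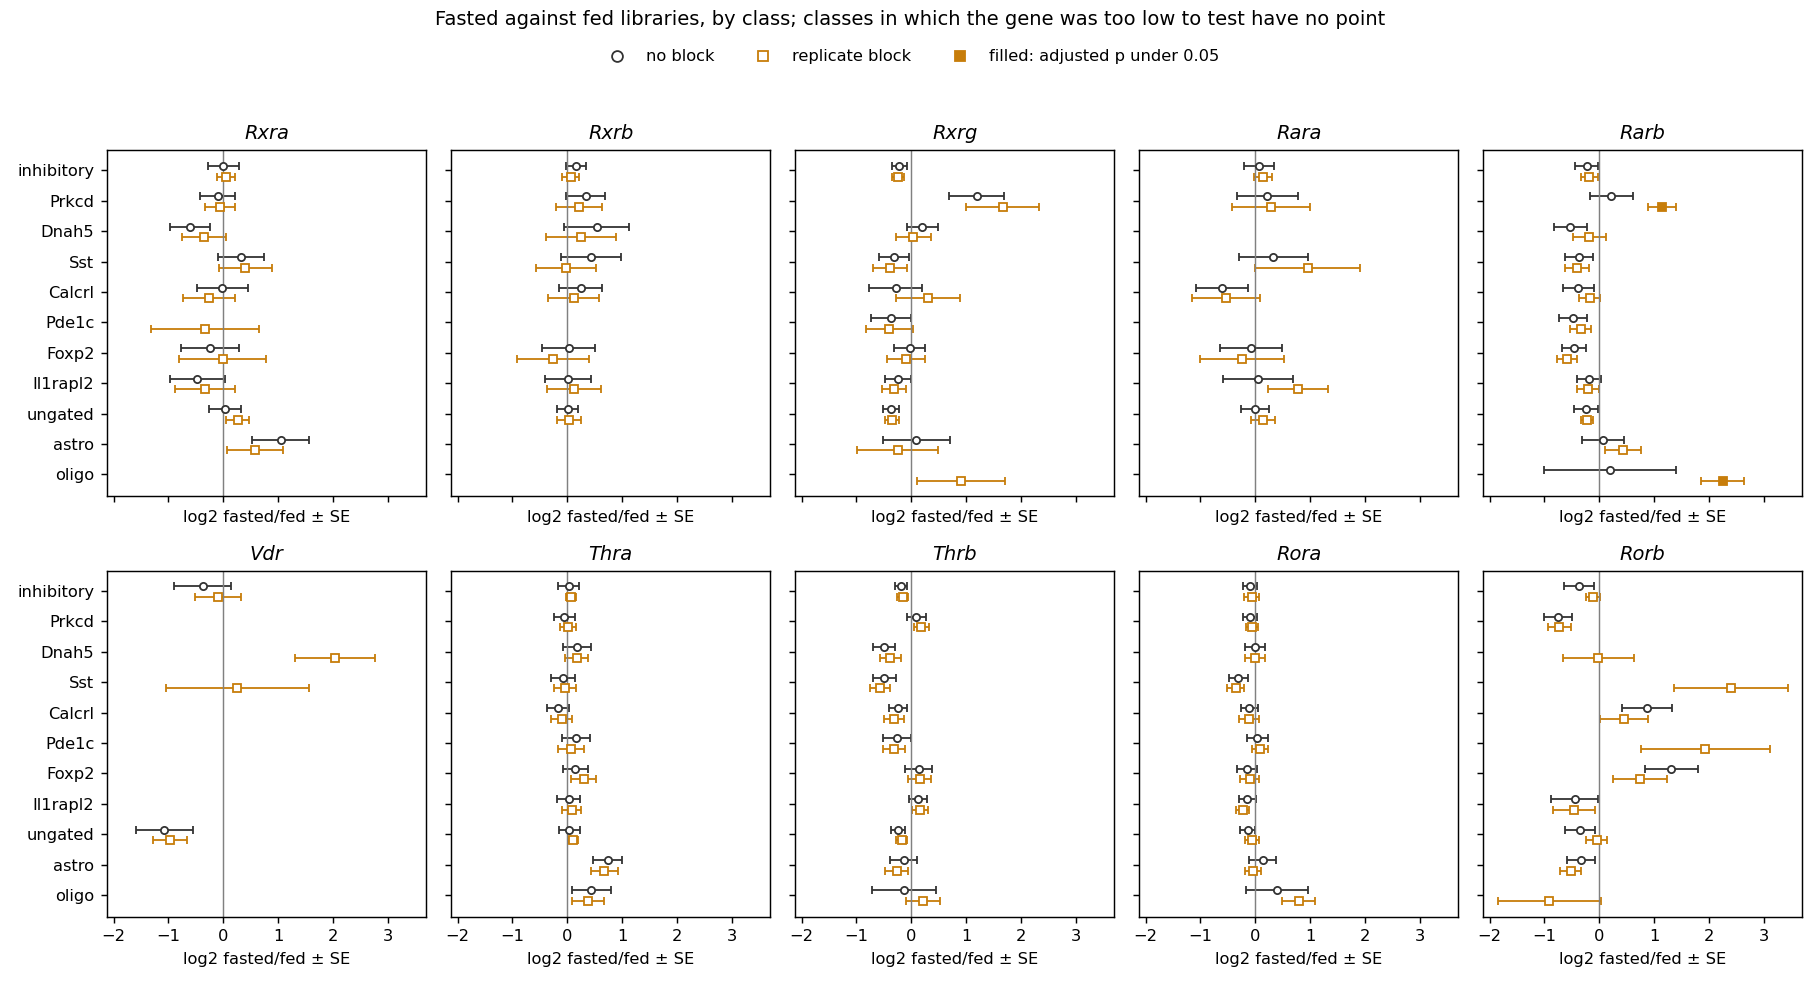
Log2 difference of fasted against fed libraries ± SE (x axis) of the 10 genes in all inhibitory nuclei and 10 classes (y axis); circles are fits without and squares with the replicate block, and filled points had an adjusted p under 0.05. Only the blocked values of Rarb in the Prkcd gate (1.14) and in oligodendrocytes (2.25) are filled.

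Whether the feeding difference in a class departed from that in the other inhibitory nuclei was tested as an interaction. Of the 10 genes, 1 was called in the 9 classes, Rorb in the Foxp2 gate (log2 1.74 ± 0.41, edgeR adjusted p = 0.0130), where 0.29% of all genes were called. Its values there were 9.47, 14.6 and 4.65 CPM in the fed and 40.9 and 22.5 CPM in the fasted libraries, without overlap, as for 19.5% of genes with 15 or more UMIs in the gate, and fasted library 1 had only 17 nuclei and 6 Rorb UMIs in this gate. The call was lost without fed library 3 (0.92, adjusted p = 1.00), fasted library 1 (1.56, adjusted p = 0.0720) or fasted library 2 (2.85, adjusted p = 0.145), with doublets removed (1.22, adjusted p = 0.512) and by DESeq2 (2.03, adjusted p = 1.00). With stricter gates it could not be fitted. The other 9 genes were not called in Foxp2, and none of the 10 was called in the others, where 0.0163% of genes were called in Prkcd, 0% in Dnah5, 0.008% in Sst, 0% in Calcrl, 0.139% in Pde1c, 0.00808% in Il1rapl2, 0.0157% in astrocytes and 0% in oligodendrocytes.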

How the data were processed

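Single nuclei were profiled with 10x 3′ kits in 3 fed and 2 fasted libraries. The deposited files hold raw UMI counts per gene and nucleus, not normalised by the authors. The file headers name Cell Ranger 5.0.0, the submitters' processing notes 2.1.1, and the methods give GRCm39 with introns counted. Nuclei were gated on raw marker UMIs and summed per library and class. Sums were tested with edgeR 4.0.16 in R 4.3.3 (quasi-likelihood, TMM, filterByExpr, Benjamini-Hochberg over all genes tested) in classes with at least 10 nuclei in every library. As alternatives, DESeq2 1.42.0, edgeR's likelihood ratio test, a fit without the filter and a fit with the replicate number as a block were run, as were fits without each library, with doublets removed (92 nuclei called by Scrublet in scanpy 1.11.5), with at least 1500 genes per nucleus and with gate minimums 1.5 times as high. The fits were tested on simulated data. No pair of libraries shared more than 1 barcode.

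By the study's account, its fed and fasted datasets 1 shared a preparation batch, as did its datasets 2, and another fed dataset had no fasted partner. The labels number the libraries otherwise and do not say which dataset each one is. Pairing by label number was therefore assumed. The deviations of fed and fasted libraries of the same number correlated with r = 0.52 and 0.74 in all inhibitory nuclei and with r = -0.05 and 0.24 in astrocytes. Fasted deviations were taken from the mean of 2 libraries and mirror each other, so the 2 values of a class are not independent. Median UMIs were 8326 and 6608 in fed and fasted library 1, and 14886 and 16367 in fed and fasted library 2. The part of depth in these correlations was not tested, so they do not establish the pairing.

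All 10 receptor genes are named. From each list and comparison up to 3 called genes with the greatest fold could be named, and besides these only gate and check markers. Aldh1a2, Aldh1a3, Cyp27b1 and Cyp24a1 were named after their levels were seen. Some genes of the lists are not reported here. The members and lists were chosen with earlier results of these data known. The libraries are pools of mice, so p-values of the feeding tests without a block measure the spread between 3 and 2 pools. With the replicate block they rest on 1 residual degree of freedom. Those of the class and interaction tests measure the spread of differences within the 5 libraries.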

Additional observations from a re-analysis of the deposited data

Results flagged for a closer look

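The feeding difference of Rorb in the Foxp2 gate departed from that in the other inhibitory nuclei by a log2 value of 1.74 (interaction term, edgeR quasi-likelihood test, adjusted p = 0.0130). For fasted against fed libraries the Foxp2 gate gave 1.31 ± 0.48 and all inhibitory nuclei gave -0.37 ± 0.27, neither called on its own. The gate held 25, 88 and 95 nuclei in the fed and 17 and 139 in the fasted libraries, with 2, 21 and 7 Rorb UMIs in the fed and 6 and 53 in the fasted ones. Its Rorb level, 18.4 CPM ± 14.2 over libraries, was 1.64% of that in astrocytes, and the 6 astrocyte gate markers stood there at 0.461% (Gja1) to 14.1% (Slc4a4) of their astrocyte levels. Their part in the result was not tested.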

How the results depend on the processing

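Of 544 values recomputed under alternatives, 471 kept their direction and side of the threshold or moved by less than the spread. The fed-fasted comparisons called 110 genes in all, against 633 by the likelihood ratio test, 228 by DESeq2, 936 without the filter, 1565 with the replicate block, 1288 with the block and fed library 3 left out, 1530 with the block and doublets removed, 50 with stricter gates (over 10 of the 11 comparisons, since Foxp2 could not be fitted), and 33 to 251 with 1 library left out. The last 2 block settings and the fed libraries alone were chosen after seeing the data. Receptor genes called numbered 0, against 2 without the filter (Vdr in Calcrl, 5.90, and Dnah5, 2.45), 2 with the block, 3 with the block and fed library 3 left out, and 0 with any 1 library left out. The block changed no other receptor call. Rarb reversed in Prkcd without fed library 1 (-0.02) or 2 (-0.075), with doublets removed (-0.046) and with stricter gates (-0.16), and reached 1.18 without fed library 3, and in oligodendrocytes without fed library 1 (-0.07), fed library 2 (-0.38) or fasted library 1 (-1.22) and with stricter gates (-0.092), reaching 2.11 without fed library 3. The Foxp2 interaction called 36 genes, against 0 by DESeq2 and 5 to 73 with 1 library left out. That of Rorb was 2.03 by DESeq2, 1.22 with doublets removed and 0.92 to 2.85 with 1 library left out. Class comparisons called 17467 to 21107 genes with 1 library left out, against 22128, and 21 to 25 receptor calls. Rxrb in Nkx2-1 moved from 18.4 to 33.5 CPM with stricter gates. Depth set the shares of nuclei with a UMI: at 2000 UMIs and without thinning, Rarb in Calcrl was 41.2% and 67.0%, Rxrg in Il1rapl2 5.42% and 48.7%, and without thinning Rorb in astrocytes was 82.3% and Rxrg in Vdr nuclei 61.8%. The cause of these changes was not tested otherwise.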
